A study of Arabidopsis thaliana with 4 samples.

Results

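The cytochrome P450 genes described here are 23 nuclear genes of Arabidopsis thaliana whose symbol in the array's annotation begins with CYP, a family number of 2 or 3 digits and a letter. They come from 13513 probe sets that the annotation gives to a single gene, and each was represented by 1 probe set. RefSeq names 236 such genes in the Arabidopsis assembly TAIR10.1, so the 23 are a small share of the superfamily; other P450 genes were not analysed here. All 23 carry a cytochrome P450 name in RefSeq. Of the 23, 19 belong to family 71, all in subfamily CYP71B, and CYP51G2, CYP78A9, CYP79A2 and CYP84A4 stand alone in families 51, 78, 79 and 84. RefSeq classes CYP71B27 and CYP51G2 as transcribed pseudogenes.

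RNA came from whole seedlings aged 7 days, grown in 8 h light and 16 h dark at 21 °C, and each of 4 groups was measured once on an Affymetrix array. The WT group is the wild type of the Columbia ecotype, and the emf2 group is a mutant of EMBRYONIC FLOWER 2, a subunit of the Polycomb repressive complex that keeps floral genes silent in seedlings; its allele is not given in the labels. The transWT group is the wild type with 35S::BoEMF2.1, an EMF2 gene of Brassica oleracea under a strong constitutive promoter, and rescued emf2 is the mutant with the same transgene. Both transgenic groups grew with hygromycin and the other groups without it, so transgene and hygromycin cannot be told apart, and nothing in the labels says how many plants or transgenic lines were pooled. EMF2 has no probe set named here, so the genotypes were not checked by its signal. RCA, the Rubisco activase of green tissue, and PYK10, a beta-glucosidase of roots, were both bright on every array, at 12239 to 25436 and at 15178 to 17946.

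P450 enzymes are membrane-bound haem proteins that insert oxygen into small molecules, and in plants they shape hormones, lignin precursors, sterols and defence compounds. Family 71 is one of the largest in plants and lies in the clan named after it, which also holds families 78, 79 and 84; many of its genes sit in tandem arrays of recent duplicates, and most CYP71B enzymes have no settled substrate. CYP71B6 acts on indole-3-acetonitrile in indole metabolism, CYP84A4 takes part in making the lactones called arabidopyrones, CYP79A2 turns phenylalanine into the oxime that starts benzylglucosinolate synthesis, and CYP78A9 affects fruit and seed size.

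Signals are MAS5 intensities on a linear scale, and a signal of 87.6, the 40th percentile over the 4 arrays, was taken as the floor below which ratios were not read. Among all non-control probe sets, 12145 of 22746 were above the floor on all 4 arrays. Of the 23 genes, 7 were above the floor on all arrays (CYP71B5, CYP71B6, CYP71B23, CYP71B26, CYP71B28, CYP71B29 and CYP71B34) and 3 on some arrays (CYP71B35, CYP71B37 and CYP84A4). The other 13 were below it on every array: CYP51G2, CYP78A9, CYP79A2 and the CYP71B genes 16, 21, 22, 24, 25, 27, 30P, 31, 36 and 38. Their signals ran from 0.80 to 37.2 in WT, from 0.60 to 48.4 in emf2, from 1.30 to 47.3 in transWT and from 0.80 to 55.0 in rescued emf2. Ratios of the benzylglucosinolate enzyme CYP79A2 and the fruit-size gene CYP78A9 were therefore not read at this floor. CYP78A9 read 37.2 in WT, 32.3 in emf2, 4.8 in transWT and 9.2 in rescued emf2. In WT and emf2 that is above the lower floor of 30.7 (25th percentile), which CYP79A2 did not reach on any array. Levels are compared below only within a gene, since the probe sets of different genes differ in brightness per transcript.

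**Figure D1:**
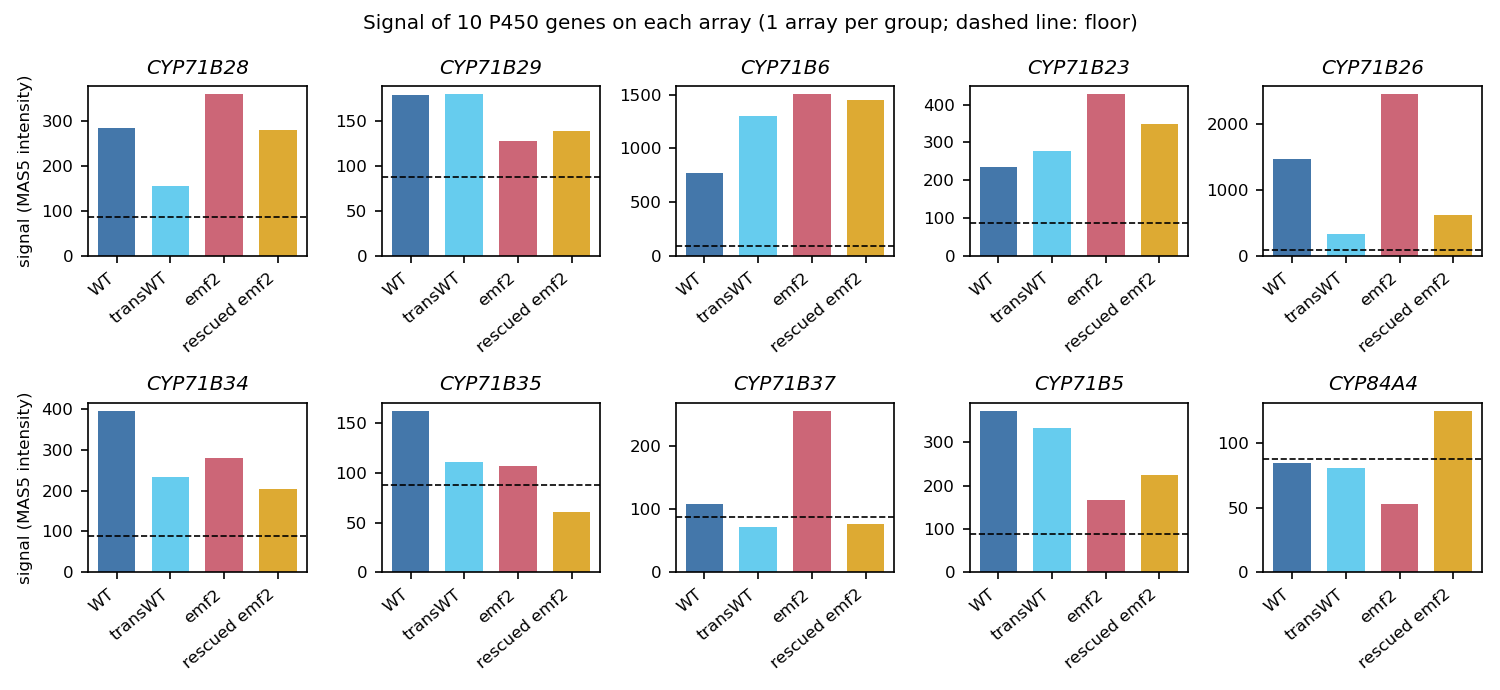
Signal (MAS5 intensity, linear axes from 0, a scale for each gene) of the 10 P450 genes above the floor on at least 1 array, with 1 bar per array and the floor of 87.6 as a dashed line. CYP71B26 has its 2 lowest bars in the transgenic groups, and CYP71B37 clears the floor in WT and emf2 only.

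CYP71B26 (AT3G26290) had the largest ratios of the members, with bounds taken at their value. Its signals were 1472 in WT, 2454 in emf2, 325 in transWT and 617 in rescued emf2. Both arrays with the transgene and hygromycin were lower than both arrays without, and on either side of that divide the emf2 background was the higher. The ratio was 4.53-fold lower in transWT than in WT (log2 -2.18) and, in the mutant, 3.98-fold lower with the transgene than without (log2 -1.99), 2 ratios that share no array. Of 14620 probe sets tested in transWT over WT, 66 were as low or lower (0.451%), and of 14122 in rescued emf2 over emf2, 93 were (0.659%). Against WT, rescued emf2 was 2.39-fold lower. The background difference was smaller, 1.67-fold for emf2 over WT and 1.90-fold for rescued emf2 over transWT, both higher in the mutant.

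The 4 arrays allow a fit with a background effect and a transgene effect, each assumed equal in both pairs, which leaves 1 residual degree of freedom. Its SE and p rest on the difference between the pairs and on variance borrowed from other probe sets (4.35 further degrees of freedom). No replicate arrays within a group enter them. In this fit by limma, with Benjamini-Hochberg adjustment over 12145 probe sets, the transgene effect on CYP71B26 was -2.08 on the log2 scale (SE 0.21, adjusted p = 0.0693, lower in 2 of 2 pairs). The adjusted p ranged from 0.0192 to 0.103 over the alternative settings: it was 0.0192 when arrays were scaled to their medians and 0.047 after cyclic loess, and above 0.05 otherwise. For the transgene, median scaling called 222 of all probe sets higher and 112 lower of 12146, and cyclic loess 35 and 21 of 12145. The fit above called 6 higher and 1 lower of 12145. The background effect was 0.83 (SE 0.21, adjusted p = 0.118 by limma, higher in 2 of 2 pairs). Control probe sets also differed between the arrays with and without the transgene, and were higher on those with it. The 7 for bacterial poly-A RNAs were at a median of 1.92-fold the WT signal in transWT, 2.48-fold in rescued emf2 and 1.05-fold in emf2. The 18 hybridization controls were at 1.21-fold, 1.35-fold and 1.03-fold in the same order. This difference between arrays cannot be told apart from transgene and hygromycin, and its bearing on CYP71B26 was not tested. The RNA is of whole seedlings, so fewer cells that use a gene and less of its RNA per cell cannot be told apart in any of these values.

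The effect of the mutation was read from emf2 over WT, where 9 members were measured; 1 was higher by 2-fold or more and 1 lower by as much, against 7.34% and 11.1% of 14653 probe sets. Their median log2 ratio was 0.34, against -0.05 over all probe sets tested. CYP71B37 (AT3G26330) was the gene past 2-fold on the high side. It read 109 in WT, 256 in emf2 and 76.3 in rescued emf2, and was below the floor in transWT too, so emf2 stood above the 3 other arrays. The ratio to WT was 2.35-fold (log2 1.23). On the low side CYP71B5 (AT3G53280) read 373 in WT, 167 in emf2, 333 in transWT and 224 in rescued emf2, with both arrays of the mutant background below both arrays of the wild type. The emf2 signal was 2.24-fold below that of WT. With the floor at the 60th percentile this ratio was 1.44-fold, a bound, and CYP71B37 was below that floor on both arrays, so neither passed 2-fold.

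Just inside the threshold lay CYP71B6 (AT2G24180), the indole-metabolism enzyme, with 771 in WT, 1506 in emf2, 1298 in transWT and 1453 in rescued emf2. WT was the lowest array and the other arrays lay close together, which gives 1.95-fold in emf2 over WT, 1.88-fold in rescued emf2 over WT and 1.68-fold in transWT over WT. CYP71B23 (AT3G26210) read 235 in WT, 428 in emf2, 278 in transWT and 350 in rescued emf2, a ratio of 1.82-fold for emf2 over WT. Its arrays of the mutant background were both above those of the wild type. With each array scaled to its median, CYP71B6 and CYP71B23 passed 2-fold and CYP71B5 did not.

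**Figure D2:**
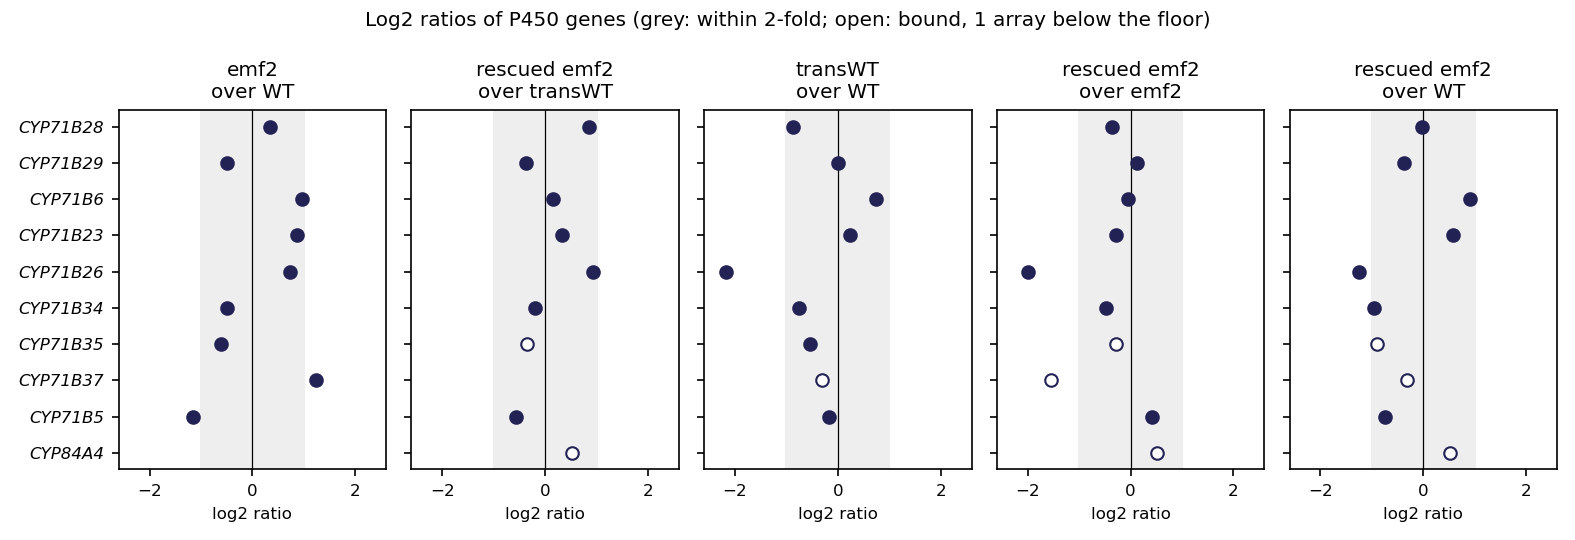
Log2 ratios (x axis) of the 10 P450 genes above the floor on at least 1 array, in 5 comparisons of single arrays; grey marks ratios within 2-fold and open circles are bounds. CYP71B26 lies beyond 2-fold to the left in the 3 right-hand panels, and most other points lie in the grey band.

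The same mutant background was compared in the presence of the transgene in rescued emf2 over transWT, a pair with no array in common with emf2 over WT. No member of 9 measured was 2-fold higher or lower there, with 2.26% of 14250 probe sets higher and 2.99% lower; the median log2 ratio was 0.16 for the members and -0.03 for all. CYP71B26 at 1.90-fold and CYP71B28 (AT1G13090) at 1.81-fold came nearest. CYP71B28 read 285 in WT, 361 in emf2, 155 in transWT and 281 in rescued emf2, with transWT the low array, and emf2 over WT was 1.26-fold. With the floor at the 60th percentile its ratio here was a bound of 1.09-fold. CYP71B5 was 1.49-fold lower in this pair.

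All 8 members measured in both of these pairs had the same sign of the background difference in each (CYP71B6, CYP71B23, CYP71B26 and CYP71B28 higher in the mutant background, CYP71B5, CYP71B29, CYP71B34 and CYP71B35 lower), while 73.5% of 13792 probe sets did. The count was 8 of 8 under each other scaling too, where 72.5% to 74.4% of all probe sets had the same sign. With the floor at the 25th percentile it was 10 of 11, the exception being CYP84A4, against 71.3% of all probe sets. With the floor at the 60th percentile it was 5 of 5, against 75.4%. None of the 8 was past 2-fold in both pairs, against 1.49% of probe sets higher and 2.08% lower in both. The additive fit called 0 of 7 members for background at an adjusted p under 0.05 (limma), as it called 0% of all probe sets; at an unadjusted p under 0.05 there were 4 members (CYP71B5, CYP71B23, CYP71B26 and CYP71B28) and 25.1% of all probe sets. An SD of error in a log2 ratio was taken from how far the probe sets of 43 genes measured more than once disagree. It was 0.27 in emf2 over WT and 0.35 in rescued emf2 over transWT. Both probe sets of a gene were read on the same arrays. Variation between seedlings or arrays that both share is therefore not in this SD. In the second pair -0.20 for CYP71B34, 0.16 for CYP71B6 and 0.33 for CYP71B23 were within that SD. CYP71B35 had a bound of -0.35 there, so its ratio may lie further below 0. With the floor at the 25th percentile it was -0.89.

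**Figure D3:**
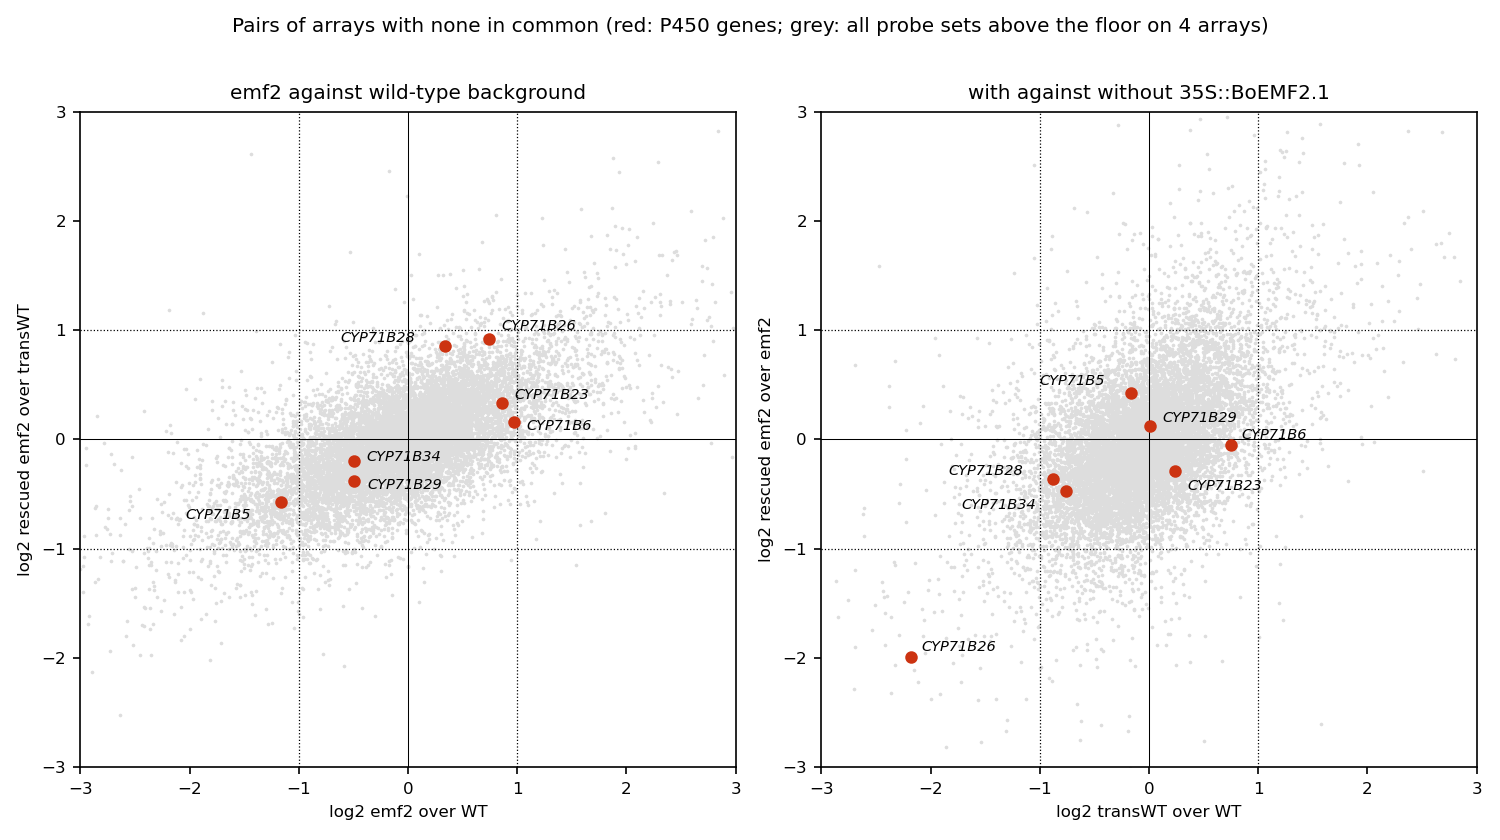
Log2 ratios of 2 pairs of arrays with none in common, for the background on the left and for the transgene with hygromycin on the right; red points are the 7 P450 genes above the floor on all arrays, grey points all 12145 probe sets of that kind (82 lie beyond the axes), and dotted lines mark 2-fold. CYP71B26 lies far down the lower left corner in the right panel, and in the left panel every red point lies to the upper right or lower left of the origin. In the right panel CYP71B5, CYP71B6 and CYP71B23 do not.

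The transgene with hygromycin was read from transWT over WT in the wild type. Of 9 measured members 0 were at least 2-fold higher and 1, CYP71B26, was lower, against 3.88% and 5.32% of 14620 probe sets. The median log2 ratio of the members was -0.31 and that of all probe sets -0.07. CYP71B28 was 1.84-fold lower (a bound of 1.10-fold under the 60th percentile floor) and CYP71B34 1.70-fold lower, and CYP71B29 (AT1G13100) was level at 1.01-fold, with signals of 179 in WT, 127 in emf2, 180 in transWT and 138 in rescued emf2.

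The same step in the mutant, rescued emf2 over emf2, had 10 measured members. CYP71B26 and CYP71B37 were at least 2-fold lower and 0 members higher, against 4.97% and 5.85% of 14122 probe sets; the members' median was -0.29 and that of all probe sets -0.06. CYP71B37 was below the floor in rescued emf2, so its ratio is a bound of at least 2.93-fold lower. That bound and its 2.35-fold excess over WT share the emf2 array, and neither is seen between the other arrays. CYP71B6 was level at 1.04-fold lower, in contrast to its 1.68-fold excess in transWT over WT. That difference of 0.80 on the log2 scale was not tested; 14.7% of 12145 probe sets measured on all arrays differed as much between their pairs.

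Across both pairs with the transgene, 1 of 9 members, CYP71B26, was at least 2-fold lower in each, as were 1.42% of 13631 probe sets. In each, 0 members and 1.99% of probe sets were higher. The sign was the same in both pairs for 6 of 9 members and for 67.5% of probe sets. CYP71B5, CYP71B6 and CYP71B23 had opposite signs. After cyclic loess 7 of 9 had the same sign, against 67.0% of all probe sets. With the floor at the 25th percentile 8 of 12 did, against 65.8%, and with it at the 60th percentile 3 of 5 did, against 70.4%. The additive fit called 0 of 7 members for the transgene at an adjusted p under 0.05 (limma), and 0.0576% of probe sets; at an unadjusted p under 0.05 it had 3 members (CYP71B26, CYP71B28 and CYP71B34) and 20.7% of all.

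Rescued emf2 over WT joins the mutation and the transgene with hygromycin in 1 ratio. Of 10 measured members 1, CYP71B26, was at least 2-fold lower and 0 higher, with 9.9% and 5.91% of 14593 probe sets; the median was -0.34 for the members and -0.10 for all. CYP71B34 came nearest below the threshold at 1.95-fold lower. CYP84A4 (AT5G04330), the arabidopyrone gene, had 84.6 in WT, 52.7 in emf2, 80.8 in transWT and 125 in rescued emf2, which is above the floor on the last array alone and gives bounds of at least 1.43-fold higher over each of the others. With the floor at the 25th percentile the ratio of rescued emf2 to emf2 was 2.38-fold.

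Position on the chromosome was not part of how the genes were chosen, and 16 of the 23 lie on chromosome 3. From CYP71B16 to CYP71B37 the TAIR10.1 annotation has 25 genes in a row, 18 of them P450 genes, and 11 of these are members. Only 5 of the 11 were above the floor on any array: CYP71B23, CYP71B26, CYP71B34, CYP71B35 and CYP71B37. Neighbours in this block did not share 1 pattern over all comparisons. With bounds at their value, CYP71B26, CYP71B34, CYP71B35 and CYP71B37 were below 0 in transWT over WT, rescued emf2 over emf2 and rescued emf2 over WT. CYP71B23 was at 0.24, -0.29 and 0.57 in the same order. In emf2 over WT, CYP71B23, CYP71B26 and CYP71B37 were above 0, and CYP71B34 and CYP71B35 below. CYP71B34 (AT3G26300) read 396 in WT, 281 in emf2, 233 in transWT and 203 in rescued emf2, and CYP71B35 (AT3G26310), the next gene with none between, read 163, 107, 111 and 60.2 in the same order. Both were highest in WT and lowest in rescued emf2, and both had a log2 ratio below 0 in all 5 comparisons, from -0.20 to -0.96 in CYP71B34, none of them past 2-fold. In CYP71B35 the 2 ratios measured above the floor were -0.61 in emf2 over WT and -0.55 in transWT over WT, and the 3 against rescued emf2 are bounds, the largest at least 1.86-fold lower than WT. These ratios share arrays, so they are not separate sightings. With the floor at the 25th percentile CYP71B35 was 2.70-fold lower in the rescued mutant than in WT.

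CYP71B26, with 1 annotated gene between it and CYP71B34, was higher in emf2 than in WT where CYP71B34 was lower. Both genes were lower in both transgene comparisons, CYP71B26 past 2-fold and CYP71B34 within it. CYP71B36 lies between CYP71B35 and CYP71B37 and was below the floor on every array, while CYP71B37 was highest in emf2. On chromosome 1 the adjacent CYP71B28 and CYP71B29 lay on opposite sides of 0 in emf2 over WT (log2 0.34 and -0.49). The members next to CYP71B5, CYP71B30P and CYP71B31, were below the floor on every array. Whether probes of these close relatives detect each other's RNA was not tested, and 2 further probe sets that the annotation gives to several genes, among them P450 genes, were left out for that reason.

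**Figure D4:**
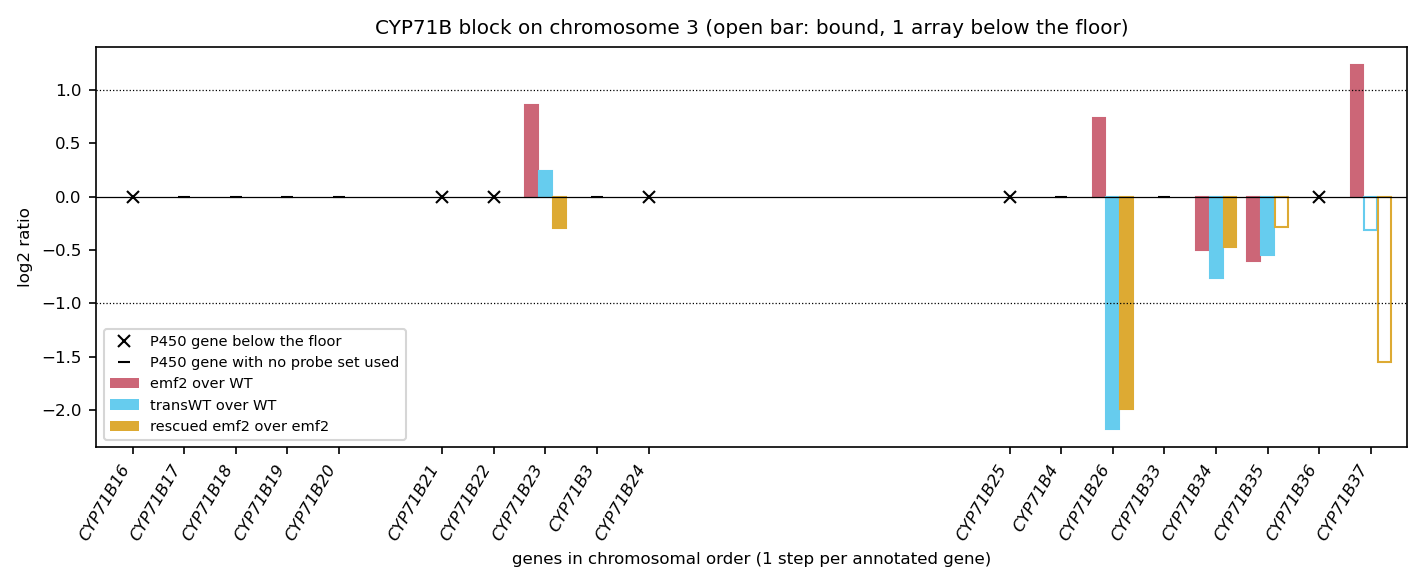
Log2 ratios (y axis) of P450 genes in the order of the chromosome 3 block, 1 step per annotated gene, for emf2 over WT, transWT over WT and rescued emf2 over emf2. Open bars are bounds, crosses are genes below the floor on every array, dashes are P450 genes with no probe set used, and steps without a mark are other genes. CYP71B26 has the deepest bars, about -2 in both transgene comparisons; the genes on either side of it have no probe set used, and CYP71B25, the nearest member before it, is below the floor.

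Other genes of the pathways in which plant P450 enzymes work were taken from lists for hormone, glucosinolate, phenylpropanoid, cutin and carotenoid synthesis. Of 153 listed genes 11 had a named probe set and 10 were above the floor. In emf2 over WT 1 was at least 2-fold higher and 0 lower, in transWT over WT 1 was higher and 0 lower, and in rescued emf2 over transWT none passed. In rescued emf2 over emf2 and in rescued emf2 over WT 1 was lower and 0 higher. Over all probe sets the shares higher and lower were 7.34% and 11.1% in emf2 over WT, 3.88% and 5.32% in transWT over WT, 2.26% and 2.99% in rescued emf2 over transWT, 5.85% and 4.97% in rescued emf2 over emf2, and 5.91% and 9.9% in rescued emf2 over WT, so 0 or 1 of 10 genes is no result about the list. BCAT4, an aminotransferase that opens the methionine-derived glucosinolate pathway, read 1420 in WT, 3274 in emf2, 921 in transWT and 550 in rescued emf2, a ratio of 2.31-fold for emf2 over WT, and a 5.96-fold lower signal for rescued emf2 against emf2. Z-ISO, an isomerase of carotenoid synthesis, was 2.37-fold higher in transWT than in WT. Of 83 P450 genes placed in such pathways by textbook role, 4 had a probe set named here, and only CYP71B6 and CYP84A4 were above the floor on any array; neither was past 2-fold in any comparison, with the bounds of CYP84A4 taken at their value.

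With 1 array in each group no ratio has a replicate check, and this number of arrays sets the precision. From 13394 to 14015 of 22746 probe sets were above the floor on an array. The split of 2-fold calls over all probe sets depended on the scaling: in emf2 over WT 39.7% of them were on the higher side, and 58.0% with each array scaled to its median; in rescued emf2 over transWT these shares were 43.0% and 56.3%. In transWT over WT they were 42.2% and 60.3%, with 56.4% where no floor was used. In rescued emf2 over WT they were 37.4% and 62.7%, with 49.3% after quantile normalization and 49.1% after cyclic loess.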

How the data were processed

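Per the labels' protocols, cRNA of whole seedlings was labelled with biotin and each group was hybridised to 1 Affymetrix array. The deposited values are linear intensities, and MAS5 is the tool named for them, per the submitters' processing notes, without version or settings in the sources used here. MAS5 subtracts a mismatch signal, which makes dim probe sets noisy. The trimmed means of the 4 arrays were alike, so they had been scaled before deposit.

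Arrays were rescaled to one mean trimmed by 2% at each end, signals were floored at 87.6 (40th percentile of 22746 probe sets, without 64 controls), and log2 ratios were formed from 2 arrays at a time; at least 2-fold counts as higher or lower. A ratio with 1 array below the floor is a bound, and a gene below it on both arrays was not tested. An additive fit used limma 3.58.1 (lmFit, eBayes) in R 4.3.3 on the 12145 probe sets that cleared the floor on every array. The fit and the ratio step were run on simulated data as a check of the code. The simulation for the ratio step had no noise, and that for the fit had equal noise and the additive effects that the fit assumes. Neither tests the 4 arrays used here. Symbols came from the platform's annotation of 14016 probe sets, and all 23 genes were matched by gene ID to RefSeq (TAIR10.1), used for names and gene order only. Alternatives were the deposited values, quantile, median and cyclic loess scaling, floors at the 25th and 60th percentile, a pseudocount of 1, members above the floor on both arrays, and the dimmer probe set of a gene. Members and lists were chosen with earlier results of these data known. Named are the members above the floor and those 13 below it.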

Additional observations from a re-analysis of the deposited data

Results flagged for a closer look

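CYP718 (AT2G42850) is a P450 gene whose symbol has no subfamily letter and which is therefore outside the 23. Its signal was above the floor on every array but transWT and was highest in the rescued mutant. It read 101 in WT, 137 in emf2, 87.4 in transWT and 185 in rescued emf2, with both arrays of the mutant background above both of the wild type. The log2 ratio of rescued emf2 over WT was 0.87, within 2-fold. Over transWT, where it was just below the floor, rescued emf2 was at least 2.11-fold higher. In that comparison 2.26% of 14250 probe sets were at least 2-fold higher. CYP718 was singled out after its values were seen.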

How the results depend on the processing

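The deposited values and quantile normalization changed no count of members. With each array scaled to its median, emf2 over WT had 3 members higher and 0 lower, rescued emf2 over transWT had 1 higher (CYP71B26), rescued emf2 over WT had 1 higher (CYP71B6), and the additive fit called 1 member for the transgene (CYP71B26). Cyclic loess changed 1 count, again to 1 call for the transgene (CYP71B26). The floor at the 25th percentile gave 1 higher in rescued emf2 over emf2 (CYP84A4), against 6.47% of all probe sets. It gave 2 lower in rescued emf2 over WT, against 11.4%. The floor at the 60th percentile left 0 higher and 0 lower in emf2 over WT, against 6.49% and 8.61%. It left 1 lower in rescued emf2 over emf2, against 4.04%. With only members above the floor on both arrays that comparison also had 1 lower. With no floor and a pseudocount of 1, dim members entered: 5 higher and 2 lower in emf2 over WT, 4 lower in rescued emf2 over transWT, 3 higher and 3 lower in transWT over WT, 3 higher and 8 lower in rescued emf2 over emf2, 2 higher and 6 lower in rescued emf2 over WT, and 3 lower in both pairs of the transgene. These 3 were CYP71B26 and, below the floor of 87.6 on every array, CYP71B25 and CYP78A9. The share of all probe sets lower in both pairs is not given here for this setting. Over all probe sets the same setting had 10.8% higher and 16.2% lower in emf2 over WT, 7.30% and 10.3% in rescued emf2 over transWT, 11.9% and 9.25% in transWT over WT, 12.8% and 8.99% in rescued emf2 over emf2, and 12.2% and 14.1% in rescued emf2 over WT. The count in both pairs of the transgene was otherwise 1, CYP71B26, which was between 4.06-fold and 4.53-fold lower in transWT over WT over the 7 alternatives. Taking the dimmer probe set changed no count, since each member has 1. Under the floors at the 25th and 60th percentile and the pseudocount, 12 ratios of named members moved by more than the SD between probe sets of a gene. No ratio past 2-fold changed sign. Scaling to the median moved the median log2 ratio of all probe sets from -0.05 to 0.15 in emf2 over WT, from -0.07 to 0.08 in transWT over WT and from -0.10 to 0.14 in rescued emf2 over WT. Where the fewer or added probe sets tested do not show it, the cause was not tested. No paired analysis of replicates was possible because each group has 1 array. The additive fit compares the arrays by background and transgene instead.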
